A study of Mus musculus with 65 samples.

Results

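The positions of LDB1 on the genome were set against those of CTCF in untreated LDB1-AID cells. The LDB1 sites were the 10729 LDB1 peaks that the authors called on chromosomes 1 to 19 and X, out of 143220 peaks in the 9 deposited peak sets of the series. Every LDB1 peak on those chromosomes was taken, whatever its distance to CTCF. The reference points were the 54223 CTCF peaks of the same cells on the same chromosomes.

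All sets came from chromatin immunoprecipitation followed by sequencing (ChIP-seq) in G1E-ER4, a mouse erythroblast cell line. AID is a degron, a protein tag that marks its carrier for breakdown once the plant hormone auxin is added. It is fused to LDB1 in the LDB1-AID subline and to the cohesin subunit SMC3 in the SMC3-AID subline. The LDB1 and CTCF sets each combine 2 replicates of untreated LDB1-AID cells, which carry the tag but received no auxin. For comparison, the YY1 and RAD21 sets of the same untreated cells, the LDB1 set of LDB1-AID cells after 4 h of auxin, and the LDB1 sets of SMC3-AID cells without auxin and after 4 h of auxin were used. The LDB1-AID sets combine 2 replicates each and the SMC3-AID sets 3 each. The replicates had been merged before deposit, and replicate error can therefore not be given. Each peak is an interval of 400 bp with no score, and read depth is unknown. The labels do not say whether a subline is 1 clone.

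LDB1 does not bind DNA itself. In erythroid cells GATA1 and TAL1, with LMO2 as a bridge, bring it to enhancers, and LDB1 molecules can pair with each other and so hold distant enhancers and promoters together. CTCF binds DNA through its zinc fingers and halts the cohesin ring, of which RAD21 and SMC3 are subunits. A pair of CTCF sites can thus close off a stretch of chromosome as a loop, and a CTCF site between an enhancer and a promoter can insulate one from the other. YY1 is a zinc finger protein found at many promoters and enhancers. Where LDB1 sites fall relative to CTCF sites is therefore the linear layout on which both systems act.

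LDB1 peaks lay close to CTCF peaks, but 794 of them (7.4%) overlapped one. The median distance between the midpoint of an LDB1 peak and that of the nearest CTCF peak was 6.32 kb (95% interval of the median 6.09 to 6.57 kb, counting error only). A 10th of the LDB1 peaks lay within 0.586 kb of CTCF and 25% within 1.99 kb, while 75% lay within 16.2 kb and 90% within 35.3 kb. The most distant LDB1 peak was 871 kb away. On the genome's + strand, the nearer CTCF peak was on the left for 49.6% of LDB1 peaks, close to an even split. The median distance was 6.31 kb to the nearer and 26.2 kb to the farther of the flanking CTCF peaks. Of the LDB1 peaks, 48.4% had CTCF within 25 kb on both sides.

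These distances were read against 2 expectations, both computed exactly from the CTCF positions. The uniform expectation is the share of all positions between the outermost CTCF peaks of a chromosome that lie within a given distance of CTCF. The local expectation is the same share over only the positions within 100 kb of each LDB1 peak, averaged over peaks. The local expectation keeps each LDB1 peak in its neighbourhood. Positions without mappable sequence were not removed from either, and their part in the ratios was not tested. Both used the 10722 LDB1 peaks that have a CTCF peak on either side.

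Under the uniform expectation the median distance to CTCF would be 29.5 kb, and under the local expectation 8.19 kb. Within 1 kb of a CTCF peak lay 1635 LDB1 peaks, or 15.2% (Wilson 95% interval 14.6 to 15.9). The uniform expectation was 4.37% and the local one 9.63%, so the share was 3.49-fold above uniform and 1.58-fold above local. Within 25 kb lay 84.2% of LDB1 peaks (83.5 to 84.9), against 46.6% and 80.9%, or 1.81-fold and 1.04-fold. At 25 kb the surroundings of the LDB1 peaks thus gave nearly the same share as the peaks themselves. On average 9.94 CTCF peaks lay within 100 kb on either side of an LDB1 peak, which was 2.21-fold the uniform mean of 4.49. For 198 LDB1 peaks (1.85%) there was none.

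Split by distance, the excess of LDB1 over its local expectation ended near 2 kb. In the 4 classes of 100 bp below 0.4 kb, in which the 400 bp intervals overlap, the ratio to the local expectation was 1.75, 2.08, 1.88 and 1.73. From 0.4 to 0.6 kb it was 1.44 (1.29 to 1.61), and from 0.6 to 0.8 kb it was 1.46 (1.3 to 1.63). From 1 to 1.5 kb it was 1.29 (1.19 to 1.4), and from 2 to 3 kb 1.01 (0.943 to 1.08). LDB1 peaks next to a CTCF peak without overlapping it were thus also more frequent than in their surroundings. From 5 to 100 kb the ratio was below 1, with 0.866 (0.836 to 0.898) at 10 to 25 kb and 0.807 (0.761 to 0.855) at 25 to 50 kb. Beyond 100 kb, where the local window sets the limit, it was 0.929 (0.809 to 1.07). Observed and expected shares each add up to the whole over all classes. The excess near CTCF therefore entails ratios below 1 farther out, and these are not a separate result. The 794 LDB1 peaks that overlapped a CTCF peak were not centred on it. Their median offset was 192 bp, and 81 of them (10.2%) had midpoints within 50 bp of each other. Among the RAD21 peaks that overlapped CTCF, the median offset was 55.0 bp and 46.5% lay within 50 bp.

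**Figure D1:**
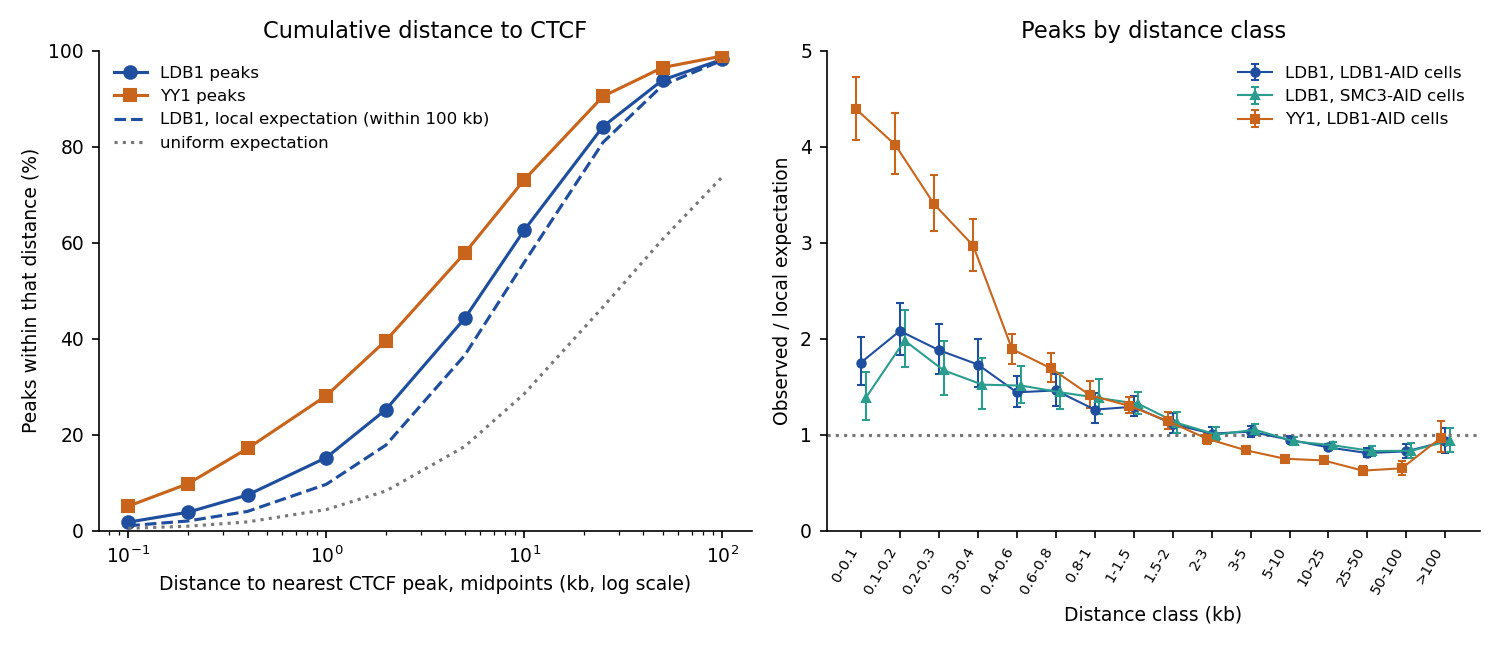
Left, the share of LDB1 peaks (circles) and YY1 peaks (squares) of untreated LDB1-AID cells within a given distance of the nearest CTCF peak (kb, log scale), with the local expectation for LDB1 (dashed) and the uniform expectation (dotted). Right, the ratio of observed to locally expected peaks by distance class for LDB1 in both sublines and for YY1, with bars for Wilson 95% intervals; below 0.4 kb LDB1 lies between 1.73 and 2.08 in LDB1-AID cells and between 1.38 and 1.98 in SMC3-AID cells, and at 2 to 3 kb LDB1 of LDB1-AID cells is at 1.01.

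The proximity was present on every chromosome examined. The share of LDB1 peaks within 1 kb of CTCF was above the uniform expectation on 20 of 20 chromosomes, from 2.4-fold on chromosome 19 to 6.31-fold on X. It was also above the local expectation on 20 of 20, from 1.2-fold on chromosome 8 to 1.94-fold on X. The median distance ranged from 4.38 kb on chromosome 11, which had the most CTCF peaks per Mb (36.5), to 10.7 kb on X, which had the fewest (8.24).

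LDB1 sets of other cells and treatments were placed against the same CTCF peaks. In untreated SMC3-AID cells the median distance of the 8585 LDB1 peaks was 6.68 kb (6.4 to 6.95), and 14.4% (13.6 to 15.1) lay within 1 kb, or 1.52-fold above local. In SMC3-AID cells after auxin the median over 7237 LDB1 peaks was 6.39 kb (6.1 to 6.7) and the share within 1 kb was 15.0%, or 1.58-fold above local. The 1043 LDB1 peaks called in LDB1-AID cells after auxin, which overlapped 834 of the untreated LDB1 peaks and include others, had a median of 5.9 kb (4.97 to 7.16), an interval that includes the untreated value. Close to CTCF they were more frequent, with 21.9% (19.5 to 24.6) within 1 kb, or 2.3-fold above local, and 7.15% (5.73 to 8.88) within 0.2 kb against 3.81% (3.47 to 4.19) of untreated peaks. The sets were not tested against each other. These sets share many sites with the untreated LDB1-AID set, and the CTCF peaks were those of untreated LDB1-AID cells throughout.

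YY1 peaks lay closer to CTCF than LDB1 peaks did. The median distance of the 12816 YY1 peaks was 3.44 kb (3.3 to 3.59), and below 0.1 kb YY1 peaks were 4.39-fold above their local expectation. Among peaks not shared between the sets, 575 of 8535 LDB1 peaks (6.74%) and 1976 of 10616 YY1 peaks (18.6%) overlapped CTCF (odds ratio 0.316, 0.286 to 0.348; two-sided Fisher's exact test, adjusted p = 3.97e-135). With overlapping peaks set aside, 7.9% of LDB1 and 13.7% of YY1 peaks lay within 1 kb of CTCF, a difference of -5.84 points (-6.77 to -4.9; Fisher's exact test, adjusted p = 9.43e-34). Within 25 kb the shares were 82.0% and 88.9% (difference -6.87 points, -7.94 to -5.79; Fisher's exact test, adjusted p = 3.63e-36).

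RAD21 peaks marked the other extreme, since 80.9% of all RAD21 peaks overlapped CTCF, against 7.4% of all LDB1 peaks. Among peaks not shared between the sets, the shares were 86.1% for RAD21 and 3.19% for LDB1. Leaving out LDB1 peaks with RAD21 removes 537 of the 794 LDB1 peaks on CTCF, which lowers the LDB1 share. Among unshared peaks that did not overlap CTCF, 25.9% of RAD21 and 8.03% of LDB1 peaks lay within 1 kb of CTCF (difference -17.8 points, -19.3 to -16.4; Fisher's exact test, adjusted p = 9.31e-149). At 25 kb the LDB1 share was 84.0% and the RAD21 share 86.6% (odds ratio 0.816, Fisher's exact test, adjusted p = 2.14e-04). With CTCF peaks that carry RAD21 as the only reference points, this last odds ratio was 1.05 (Fisher's exact test, adjusted p = 0.279). The 8 comparisons with YY1 and RAD21 were adjusted together. Peaks are neither samples nor independent, so these tests cover counting error only.

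The CTCF peaks cut the chromosomes into 54203 intervals, each running from the midpoint of a CTCF peak to that of the next. Their median length was 14.5 kb, with 25% under 5.42 kb and 25% over 37.5 kb, and the longest was 7706 kb. An LDB1 peak was present in 7403 intervals (13.7%), and 46800 held none. Of the occupied intervals, 5345 held 1 LDB1 peak, 1353 held 2, 571 held 3 to 4 and 134 held 5 or more. The 134 fullest intervals contained 808 LDB1 peaks, which was 7.54% of the total. Seen from the peaks, 49.9% of LDB1 peaks were the only one in their interval and 50.1% shared it with another.

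Uniform placement by length predicted 6945 occupied intervals, 759 with 3 or more LDB1 peaks and 245 with 5 or more. The observed counts were 1.07-fold, 0.929-fold (705 intervals) and 0.547-fold of these. The first 2 ratios turned to 0.933 and 1.18 when intervals over 500 kb were left out, so their direction depends on the longest intervals. Intervals over 500 kb made up 27.6% of the length and held 1.44% of the LDB1 peaks.

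LDB1 peaks were dense where CTCF peaks were dense. In CTCF intervals of at most 2 kb there were 25.5 LDB1 peaks per Mb, in intervals of 10 to 25 kb 11.4, in those of 50 to 100 kb 5.79 and in those over 500 kb 0.217. The mean was 4.18 per Mb. The corresponding YY1 densities were 62.6, 15.8, 5.43 and 0.161 per Mb. YY1 peaks outnumbered LDB1 peaks in every class up to 50 kb, and LDB1 peaks outnumbered YY1 peaks in every class above it. The 10 to 50 kb classes held the largest numbers, with 2545 LDB1 peaks at 10 to 25 kb and 2579 at 25 to 50 kb.

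Within a length class, LDB1 peaks were concentrated in fewer intervals than placement by length gives. With the number of LDB1 peaks in each of the 9 length classes held as observed, 9334 intervals would be occupied, and the observed 7403 were 0.793-fold of that. Intervals with 3 or more LDB1 peaks numbered 705 against 138 expected, or 5.1-fold. The deficit of occupied intervals grew with length up to 500 kb and was smaller above it. The ratio was 0.986 at up to 2 kb, 0.858 at 10 to 25 kb, 0.689 at 50 to 100 kb, 0.574 at 250 to 500 kb and 0.648 over 500 kb. Short intervals held few LDB1 peaks each (157 over 4440 intervals at up to 2 kb), so their ratios cannot be compared directly with those of long ones. The ratio for 3 or more LDB1 peaks did not rise steadily with length. It was 6.53 at 10 to 25 kb, 4.9 at 50 to 100 kb, 4.43 at 100 to 250 kb and 7.82 at 250 to 500 kb. Intervals above 10 kb therefore held either several LDB1 peaks or none more often than placement by length gives.

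**Figure D2:**
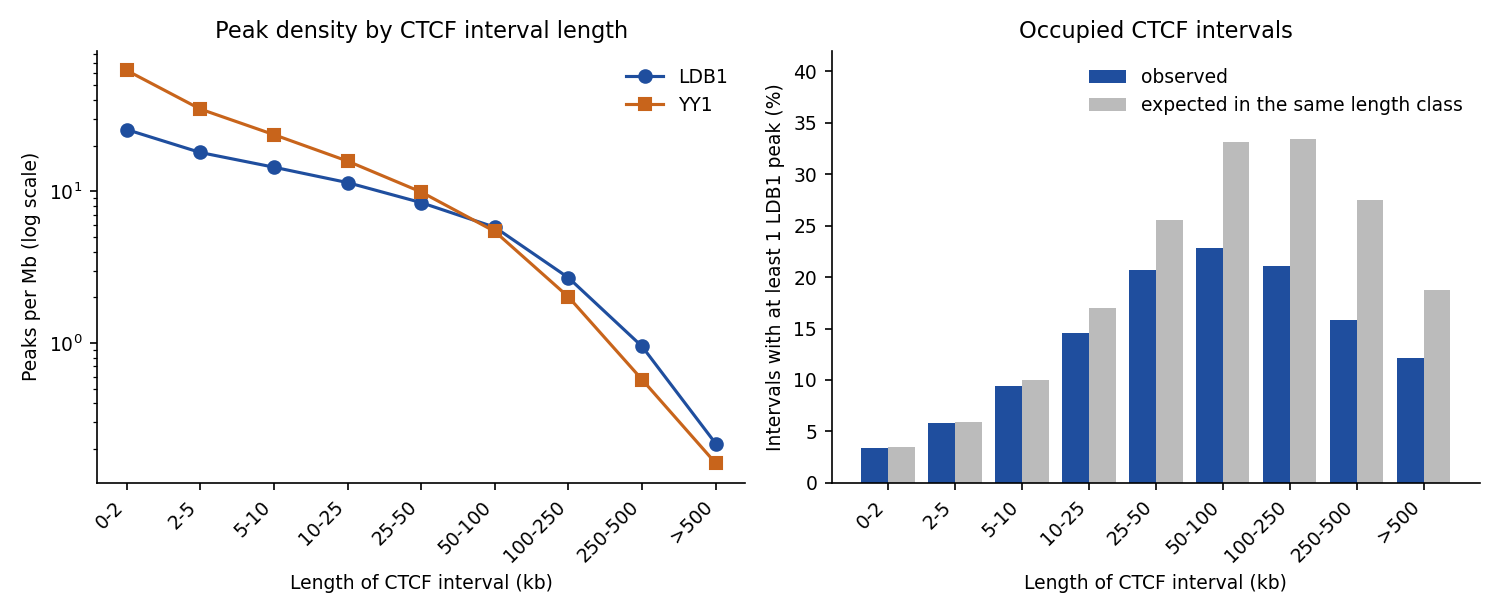
Left, LDB1 and YY1 peaks per Mb (log scale) in CTCF intervals of increasing length (kb). Right, the share of intervals with at least 1 LDB1 peak (dark bars) beside the share expected if the LDB1 peaks of that length class fell at random over its length (grey bars); the observed share is lower in each of the 9 classes, from 0.986-fold in the shortest to 0.574-fold at 250 to 500 kb.

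Intervals whose flanking CTCF peaks carried RAD21 held LDB1 more often. Of the intervals of 50 to 100 kb, 13.6% (11.9 to 15.6) held LDB1 when neither end carried RAD21, 24.8% (23.2 to 26.6) when 1 end did and 27.9% (25.7 to 30.2) when both did. Their median lengths were 68.4, 67.0 and 67.8 kb. At 10 to 25 kb the shares were 13.1% (12.1 to 14.3), 14.7% (13.9 to 15.6) and 15.7% (14.5 to 16.9). These counts include LDB1 peaks that overlap a flanking CTCF peak, and occupancy without them was not computed. RAD21 marks CTCF sites at which cohesin is held. Seen from CTCF, an LDB1 peak overlapped 556 of 26816 CTCF peaks with RAD21 (2.07%, 1.91 to 2.25) and 239 of 27407 without (0.872%, 0.769 to 0.989). From 0.4 to 5 kb away, LDB1 was about as frequent at both kinds, at 9.41% (9.06 to 9.77) and 9.11% (8.77 to 9.46). Within 25 kb without overlap it was more frequent at CTCF peaks with RAD21, at 34.2% (33.7 to 34.8) against 29.5% (29.0 to 30.1). These shares were not tested against each other.

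Inside an interval LDB1 peaks leaned to the ends. The distance to the nearer CTCF peak was divided by the largest value possible in that interval and split into 4 equal classes, each of which would hold 25% under even spread, whatever the length. The outermost class held 3324 LDB1 peaks, or 31.0% (30.1 to 31.9), and the others 24.0%, 22.1% and, at the centre, 22.9%. The outermost class was above 25% on 20 of 20 chromosomes, from 27.4% to 37.1%. In intervals of at least 50 kb without the LDB1 peaks that overlap CTCF, it still held 30.0% (28.6 to 31.4) of 3913 peaks. For YY1 it held 38.7% (37.9 to 39.6) over all intervals. Among unshared peaks that did not overlap CTCF, the outermost class held 26.3% of LDB1 and 27.9% of YY1 peaks (difference -1.6 points, -2.95 to -0.242; Fisher's exact test, adjusted p = 0.0212). Set against RAD21, it held 24.8% of LDB1 and 39.5% of RAD21 peaks (difference -14.7 points, -16.5 to -13.0; Fisher's exact test, adjusted p = 6.85e-62). The 31.0% over all intervals includes the LDB1 peaks on CTCF, and the LDB1 shares of 26.3% and 24.8% without them are near 25%. These lower shares cannot be read against 25%, however. Setting overlapping peaks aside also removes part of the outermost class, most of all in short intervals.

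Whether CTCF stood between neighbouring LDB1 sites was counted over adjacent LDB1 peaks. Of 4327 adjacent pairs with a gap of at most 25 kb, 1607 (37.1%, 35.7 to 38.6) had at least 1 CTCF midpoint between them, and 2720 lay in the same CTCF interval. Of the separated pairs, 1078 had 1 CTCF peak between them, 333 had 2 and 196 had 3 or more. Segments of the same lengths placed anywhere on the chromosome would hold CTCF in 15.2% of cases, and placed within 100 kb of the pair in 32.2%. LDB1 neighbours were thus separated by CTCF 2.44-fold more often than uniform placement and 1.15-fold more often than local placement gives. Over all pairs the share was above the local expectation on 20 of 20 chromosomes. Of the 3734 pairs in which neither LDB1 peak overlapped CTCF, 32.0% (30.5 to 33.5) were separated against 31.6% locally expected. The ratio was 1.01 to local and 2.09 to uniform placement. The expected segments were not held to the same exclusion, since their ends could lie on CTCF. These 2 ratios therefore cannot say whether the local excess is present without LDB1 peaks on CTCF.

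As a ratio to local placement, the excess over all pairs was larger at the shorter gaps. The gap classes were not computed without the LDB1 peaks on CTCF. For gaps of 2 to 5 kb, 23.0% (20.4 to 25.8) of pairs were separated against 16.4% locally expected. For gaps of 5 to 10 kb the values were 35.8% (32.9 to 38.7) and 30.5%. For gaps of 10 to 25 kb, the class with the most pairs (1710), they were 55.5% (53.1 to 57.8) and 51.6%. For 25 to 50 kb they were 76.3% (74.2 to 78.4) and 75.2%, and the interval included the local expectation. YY1 pairs within 25 kb were separated in 48.0% of cases (46.6 to 49.3), 1.29-fold above their local expectation. LDB1 pairs of untreated SMC3-AID cells gave 37.0% (35.3 to 38.8), or 1.17-fold.

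**Figure D3:**
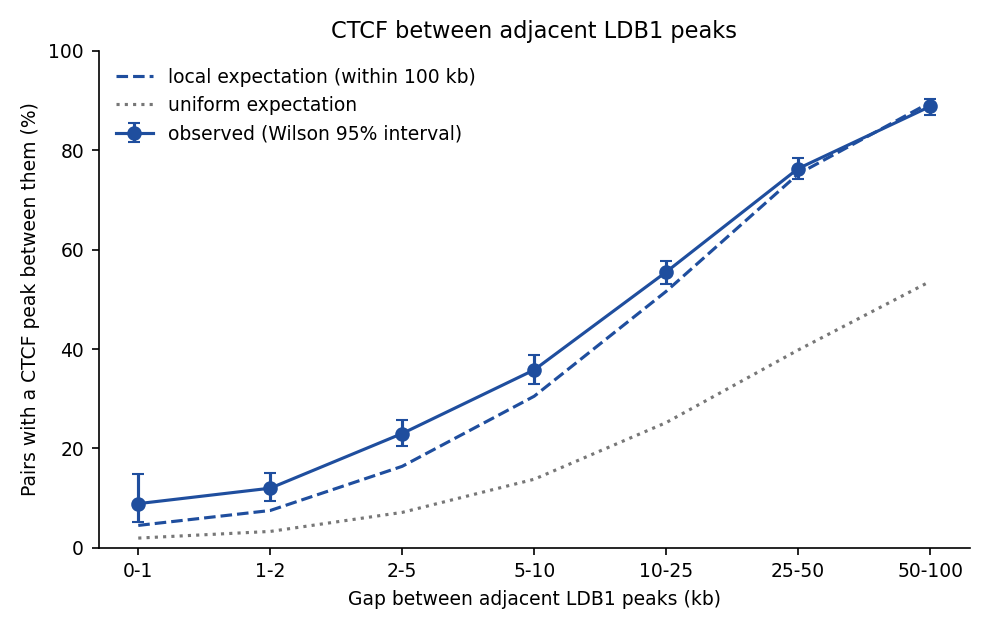
Share of adjacent LDB1 pairs of untreated LDB1-AID cells with at least 1 CTCF peak between them (circles, bars for Wilson 95% intervals) by the gap between the pair (kb), with the expectation for segments of the same length placed within 100 kb (dashed) or uniformly (dotted). The observed share goes from 8.89% below 1 kb to 88.8% at 50 to 100 kb, stays above the uniform expectation throughout, and meets the local one from 25 kb.

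Chains of LDB1 peaks, in which each peak lies within 25 kb of the next, often ran across CTCF peaks. Of 2357 chains of 2 or more LDB1 peaks, 1147 (48.7%) had no CTCF between their first and last member. Of the 230 chains with 5 or more members, 42 (18.3%) had none, 53 had 1 and 135 had 2 or more. The median such chain spanned 43.0 kb, and the highest number of CTCF peaks in one was 23. A longer span is more likely to hold CTCF by its length, and no expectation was computed for chains. These counts therefore do not say whether chains crossed CTCF more or less often than placement gives.

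The 5 intervals with the most LDB1 peaks show the range of layouts. Coordinates are in the mm9 build, counted from 1, from the start of the left to the end of the right flanking CTCF peak. No gene was assigned, because no annotation of that build was used here. Of all LDB1 peaks, 25.1% carried RAD21 and 20.4% YY1, 67.0% were called in untreated SMC3-AID cells and 59.0% in auxin-treated ones. After auxin 7.77% were called in LDB1-AID cells. The counts below are to be read beside these shares, and each interval has too few peaks for a test. The fullest, chr1:152966047-153094403, held 12 LDB1 peaks in 128 kb, where uniform placement gives 0.531. They began 10.1 kb from the left CTCF peak and ended 31.7 kb from the right one, and both flanking CTCF peaks carried RAD21. RAD21 was present at 7 of the 12 LDB1 peaks and YY1 at 1, although no CTCF peak lay among them. Of the 12, 5 were also called in untreated SMC3-AID cells, and 3 were still called after auxin in LDB1-AID cells.

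The next interval, chr2:68685007-68881996, held 11 LDB1 peaks in 197 kb, spread over 148 kb with no gap over 26.5 kb. They kept at least 24.1 kb from either CTCF peak, and 6 of them carried RAD21. None was called after auxin in LDB1-AID cells, which is unremarkable among 11 peaks at a share of 7.77% over all LDB1 peaks. An interval of 408 kb on chromosome 18 also held 11 LDB1 peaks, but 4 of them lay in the outermost of the 4 position classes and the nearest was 2.97 kb from CTCF. Neither of its flanking CTCF peaks carried RAD21, while 7 of its LDB1 peaks did. The interval chr1:69535185-69673085 held 10 LDB1 peaks in 138 kb, of which 7 carried RAD21 and 8 were called in untreated SMC3-AID cells. In chr4:89020643-89191802, 10 LDB1 peaks in 171 kb began 46.4 kb from the left CTCF peak and ended 1.13 kb from the right one. SMC3-AID cells had all 10 of them without auxin and 9 after it.

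**Figure D4:**
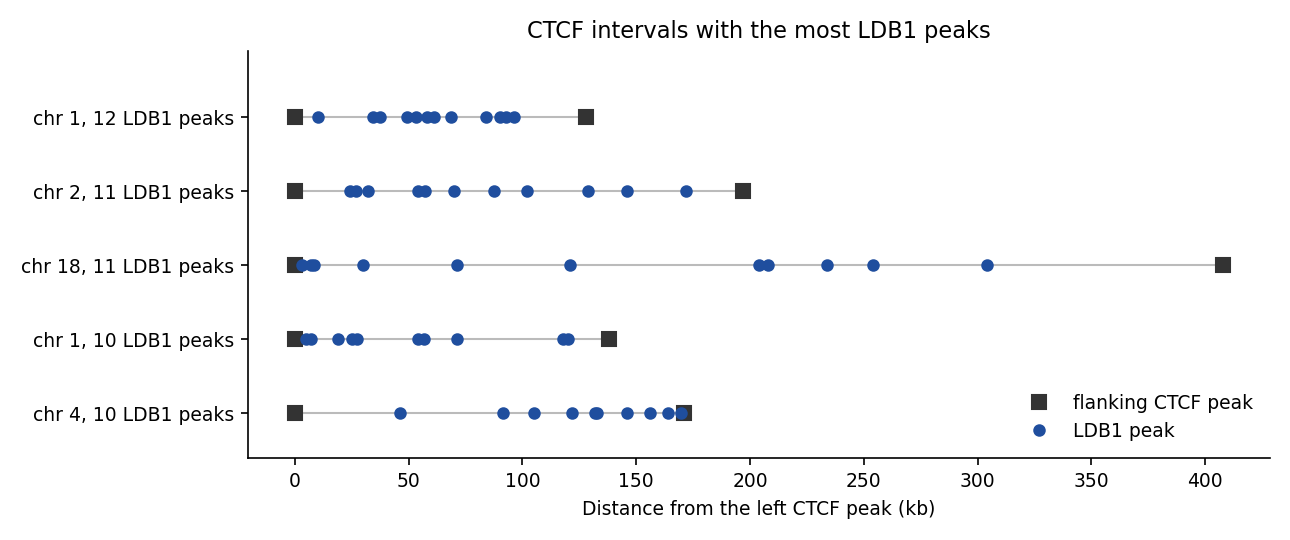
Layout of the 5 CTCF intervals with the most LDB1 peaks, drawn to scale from the left flanking CTCF peak (kb); squares are the flanking CTCF peaks and circles the LDB1 peaks. The LDB1 peaks keep at least 10.1 and 24.1 kb from CTCF in the first 2 intervals, while in the chromosome 4 interval the first lies 46.4 kb from the left and the last 1.13 kb from the right CTCF peak.

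The intervals with the most LDB1 peaks per kb, among those with 5 or more, were shorter, from 21.1 to 34.7 kb. The densest, chr12:52930423-52951924, held 5 LDB1 peaks in 21.1 kb, with one 0.352 kb from the left and one 0.628 kb from the right CTCF peak. The others, chr13:103986451-104020012, chr9:27447465-27481457, chr9:37359487-37388314 and chr6:121022796-121057850, held 5 or 6 each. Their nearest LDB1 peaks were 3.2, 3.51, 2.28 and 3 kb from CTCF. In untreated SMC3-AID cells 4, 3, 5 and 3 of their LDB1 peaks were called. All 134 intervals with 5 or more LDB1 peaks held at least 1 LDB1 peak of untreated SMC3-AID cells, and 109 held 3 or more. Of all 7403 occupied intervals, 5507 held at least 1, and since 67.0% of all LDB1 peaks were called in both sublines, an interval with many peaks is more likely to hold a shared one.

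The LDB1 peaks farthest from any CTCF peak stood alone. They were chr4:79648363-79648762 at 871 kb, chr5:71095697-71096096 at 798 kb, chr3:46147348-46147747 at 788 kb, chr8:53789362-53789761 at 719 kb and chrX:21646667-21647066 at 588 kb. None of these 5 carried RAD21 or YY1 or had another LDB1 peak within 25 kb, and none was called after auxin in LDB1-AID cells. The peaks on chromosomes 5 and 3 were called in both LDB1 sets of SMC3-AID cells and the other 3 in neither. Over all LDB1 peaks the shares were 25.1% for RAD21, 20.4% for YY1, 62.3% for a neighbour within 25 kb and 7.77% for a call after auxin. For the SMC3-AID sets they were 67.0% without auxin and 59.0% after it. These 5 peaks are too few to set apart from those shares.

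Properties that the distance did not use were then compared along it, over all 10729 LDB1 peaks. RAD21 was present at 25.1% of all LDB1 peaks. By distance it was at 537 of 794 LDB1 peaks on CTCF (67.6%, 64.3 to 70.8), 26.0% (23.1 to 29.0) at 0.4 to 1 kb, 20.5% (19.1 to 21.9) at 1 to 5 kb, 19.9% (18.8 to 21.2) at 5 to 25 kb, 25.9% (23.7 to 28.2) at 25 to 100 kb and 63 of 200 (31.5%, 25.5 to 38.2) beyond 100 kb. Cohesin at LDB1 peaks was thus most frequent on CTCF, least frequent between 1 and 25 kb and higher again beyond. LDB1 peaks within 5 kb of CTCF but not on it carried RAD21 in 21.6% of cases and those beyond 25 kb in 26.6% (odds ratio 0.763, 0.669 to 0.871; Fisher's exact test, two-sided, adjusted p = 8.01e-05). With only CTCF peaks that carry RAD21 as reference points, the odds ratio was 0.965 (Fisher's exact test, adjusted p = 0.691), so this difference did not hold there.

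YY1 was more frequent at LDB1 peaks near CTCF. It was present at 20.4% of all LDB1 peaks, at 27.3% (24.3 to 30.5) of those on CTCF, 21.1% (19.7 to 22.6) at 1 to 5 kb, 16.2% (14.4 to 18.2) at 25 to 100 kb and 10.5% (6.97 to 15.5) beyond 100 kb. Near against far, the odds ratio was 1.54 (1.32 to 1.79; Fisher's exact test, adjusted p = 2.45e-08).

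LDB1 peaks near CTCF but not on it were found again in the other subline more often than far ones. Of all LDB1 peaks, 67.0% were called in untreated SMC3-AID cells. The share was 63.6% (60.2 to 66.9) on CTCF, 72.1% at 0.4 to 1 kb, 69.4% (67.7 to 71.0) at 1 to 5 kb, 67.1% (65.7 to 68.5) at 5 to 25 kb and 56.0% (49.1 to 62.7) beyond 100 kb. Near against far it was 70.0% against 61.6% (odds ratio 1.45, 1.29 to 1.63; Fisher's exact test, adjusted p = 3.58e-09). In auxin-treated SMC3-AID cells 59.0% of all LDB1 peaks were called, with 63.2% near and 52.3% far (odds ratio 1.57, 1.4 to 1.76; Fisher's exact test, adjusted p = 1.49e-13). Peak height is unknown, and its part in these shares was not tested.

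Among the LDB1 peaks of SMC3-AID cells themselves, 78.2% were still called after SMC3 degradation. The share was 83.2% (79.9 to 86.1) on CTCF, 80.0% (78.4 to 81.6) at 1 to 5 kb, 77.0% (75.5 to 78.4) at 5 to 25 kb and 74.6% (72.1 to 77.0) at 25 to 100 kb. After LDB1 degradation 7.77% of the LDB1-AID peaks were still called, with 7.37% at 0.4 to 5 kb from CTCF and 8.32% beyond 25 kb. That difference was -0.953 points (-2.56 to 0.541; Fisher's exact test, adjusted p = 0.229) and did not pass the test. By class, 10.3% (8.4 to 12.6) were still called on CTCF, 10.2% (8.34 to 12.4) at 0.4 to 1 kb and 6.6% (5.78 to 7.53) at 1 to 5 kb. The 5 comparisons of near with far peaks were adjusted together.

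LDB1 peaks far from CTCF also had fewer LDB1 neighbours. Another LDB1 peak lay within 25 kb of 62.3% of all LDB1 peaks, of 65.3% (63.6 to 67.0) at 1 to 5 kb from CTCF, 55.0% (52.4 to 57.5) at 25 to 100 kb and 40.5% (33.9 to 47.4) beyond 100 kb.

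**Figure D5:**
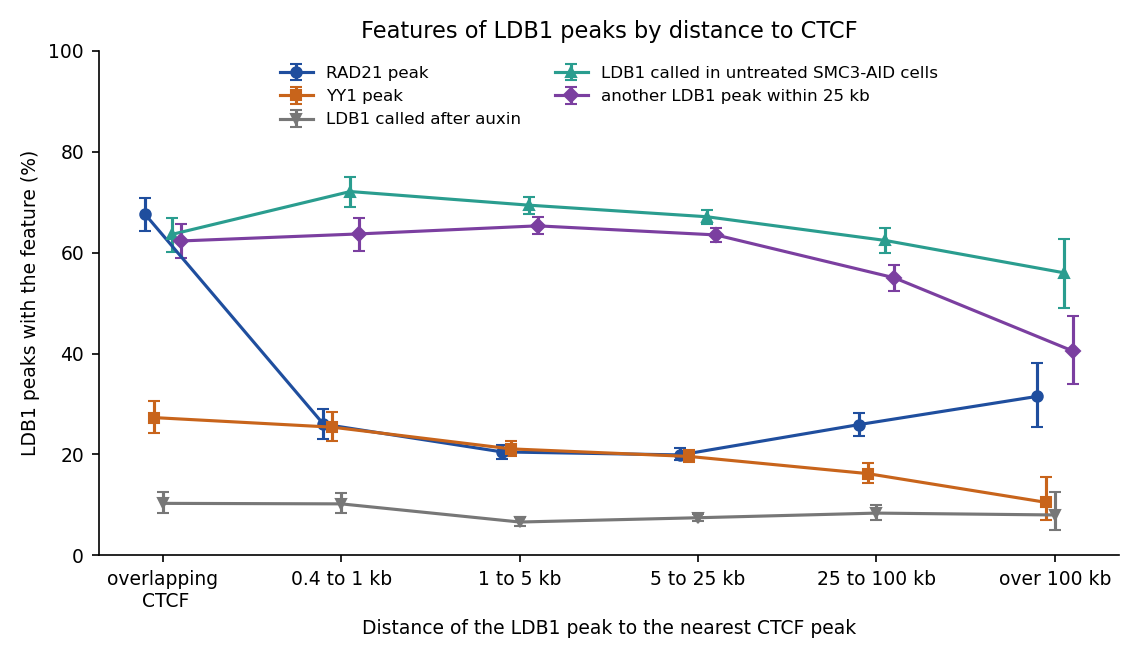
Share of LDB1 peaks of untreated LDB1-AID cells with each feature, by distance to the nearest CTCF peak, with bars for Wilson 95% intervals. RAD21 is highest on CTCF (67.6%), lowest at 5 to 25 kb (19.9%) and 31.5% beyond 100 kb, while YY1 goes from 27.3% to 10.5% over the same classes.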

How the data were processed

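Peak sets of untreated and auxin-treated cells were used as deposited. Each set lists chromosome, start and end in bp and no other value, so the unit is a position. The submitters' processing notes name Bowtie2, deepTools 3.5.1, MACS2 2.2.9.1 and the mm9 build. The threshold, filters and the rule for the consensus are not given in the sources used here. Replicates were merged by the authors and every peak is 400 bp wide, which removes any measure of signal. Samples were grouped by their titles.

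Midpoint distances, intervals, expectations and pair counts were computed with Python 3.11.15, numpy 2.4.6, pandas 2.3.3 and scipy 1.17.1. Expectations are exact sums over CTCF intervals, without random draws, and carry no p-value. Those of uniform placement were tested on simulated data. The local ones were computed there but not checked, and those within a length class were not simulated. Overlap means at least 1 bp. Shares have Wilson 95% intervals, differences Newcombe intervals, and adjusted p-values are Benjamini-Hochberg values within each family, with a threshold of 0.05. Intervals cover counting error only. The LDB1 sites, the tests and the alternatives were chosen with earlier results of these data known. The local expectation was added after the distances had been computed. Regions named are the 5 intervals with the most LDB1 peaks, the 5 with the most per kb among those with 5 or more, and the 5 LDB1 peaks farthest from CTCF. Motifs and CTCF orientation were not analysed here.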

Additional observations from a re-analysis of the deposited data

Results flagged for a closer look

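Of the LDB1 peaks of untreated LDB1-AID cells, 12 lay on mitochondrial DNA and unplaced contigs, and 63 CTCF peaks did. These peaks entered none of the comparisons.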

How the results depend on the processing

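Over 27 results, 139 alternative values were computed, of which 106 kept their direction and size or side of the threshold. Restricting to autosomes and merging CTCF or LDB1 peaks within 1 kb moved none. With intervals of at most 500 kb, the folds over uniform placement within 1 kb and 25 kb were 2.68 and 1.41, and those of occupied intervals and of intervals with 3 or more LDB1 peaks turned from 1.07 to 0.933 and from 0.929 to 1.18. With only CTCF peaks that carry RAD21, 959 LDB1 peaks lay within 1 kb, the median distance was 12.6 kb, the folds at 1 kb and 25 kb were 4.07 and 2.18 over uniform and 1.7 and 1.06 over local placement, and the interval folds were 1.14 and, turned, 1.11. Separated pairs were then 2.6-fold over uniform and 1.09-fold over local placement. LDB1 against RAD21 within 25 kb turned to an odds ratio of 1.05, RAD21 near against far weakened to 0.965, and retention after auxin turned from 0.876 to 1.04, neither of these retention values passing the test. With LDB1 peaks also called in SMC3-AID cells, the fold at 25 kb was 1.83, the median 6.06 kb, and 333 intervals held 3 or more LDB1 peaks (0.788-fold). Edge distances gave 3.31-fold at 1 kb and a median of 5.91 kb. A pair limit of 10 kb gave 2.88 and 1.28 over uniform and local placement, and 50 kb gave 2.19 and 1.09. Local windows of 50 kb gave 1.5, 1.02 and, for pairs, 1.1, and windows of 250 kb gave 1.73, 1.09 and 1.25; these windows, and the alternatives of the Fisher's exact tests, were chosen after seeing the data. The causes of these shifts were not tested, except that dropping long intervals removes CTCF-poor length by construction. No paired analysis was possible because the replicates are merged in every set, and for the same reason no replicate could be left out.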

Other observations

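The X chromosome stood at the end of several ranges. It had 1.21 LDB1 peaks per Mb, the lowest of the 20 chromosomes, against 7.5 on chromosome 19, the highest. It also had the fewest CTCF peaks per Mb and the longest median distance, while its share of LDB1 peaks within 25 kb of CTCF was 2.99-fold above the uniform and 1.14-fold above the local expectation, the highest of the 20 in both. Of the 10729 LDB1 peaks, 195 lay on X.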
